A study of Homo sapiens with 4 samples.

Results

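The AP-1 transcription factor is a family of dimers built from leucine zipper proteins, and 10 of its subunit genes were followed here in 786-O cells that carried PRDM16 or a control vector. The genes were FOS, FOSB, FOSL1, FOSL2, JUN, JUNB, JUND, ATF3, MAFF and BATF3, chosen by name, and each was matched to a locus of the deposited table that names that gene alone, 10 of 56753 loci in all. The PRDM16 cells had been stably transduced with PRDM16 lentivirus and the control cells with a control vector, with 2 RNA-seq libraries of total RNA in each group. The 786-O line was derived from a human renal carcinoma of the clear cell type that has lost working VHL, and PRDM16 is a zinc finger protein that controls transcription. The labels do not say whether the transduced cells were pools or clones, and do not call the replicates separate cultures, so each p-value reflects the scatter of these libraries alone, possibly of technical origin.

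AP-1 proteins grip DNA through a basic region and pair through a leucine zipper. FOS proteins usually bind with a JUN partner, whereas JUN proteins can also pair with each other. The dimers recognise the site TGACTCA or, with ATF partners, TGACGTCA. Growth factor and stress kinases switch the genes on, FOS and FOSB briefly and FOSL1 more lastingly, and AP-1 drives genes of matrix breakdown, cytokine release and growth in many carcinomas.

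Promoter sequence of these genes was searched for such sites and shortened or variant forms of them, because the family is known to regulate itself. RefSeq promoter windows on GRCh38.p14 were found for 8 of the 10 genes, all but FOSL1 and BATF3, in 10 windows of 250 bases before the annotated start. ATF3 and MAFF each had more than 1 window, and the first is described. Both FOSB and JUND are printed whole, since their libraries stood apart in opposite directions and their windows lie before the GENCODE gene start too, apart from 1 base at FOSB. Capitals mark TGACG on either strand, which includes TGACGTCA, and TATAAA on the gene's strand.
FOSB promoter, chr19:45467746-45467995, plus strand: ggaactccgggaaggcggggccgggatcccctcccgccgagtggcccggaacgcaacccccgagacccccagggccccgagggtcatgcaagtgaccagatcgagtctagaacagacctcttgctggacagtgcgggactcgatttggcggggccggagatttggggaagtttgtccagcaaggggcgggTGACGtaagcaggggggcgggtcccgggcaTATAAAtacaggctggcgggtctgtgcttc
JUND promoter, chr19:18281623-18281872, minus strand: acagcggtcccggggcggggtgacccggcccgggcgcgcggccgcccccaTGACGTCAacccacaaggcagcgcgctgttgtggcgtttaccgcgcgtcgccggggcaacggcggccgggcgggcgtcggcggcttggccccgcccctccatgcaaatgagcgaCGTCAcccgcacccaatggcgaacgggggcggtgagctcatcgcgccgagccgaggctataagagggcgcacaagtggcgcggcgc

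FOSB has TGACG starting 60 bases and TATAAA starting 30 bases before its start, and JUND has the full TGACGTCA starting 200 bases before. Stretches of 26 bases around 1 match in each of the other genes are given next, with the match in capitals. It is TGACG in FOS, FOSL2 and JUNB, TGACGTCA in MAFF, and the variant TGACATCA in JUN and ATF3. JUN also has TGACG, starting 123 bases before its start, and the ATF3 windows have none. These starts are those of RefSeq. The windows of FOSL2, JUN and MAFF lie wholly inside the GENCODE gene. Those of FOS and ATF3 reach 54 and 73 bases into it.
FOS, chr14:75278754-75278779, plus strand: gttgagcccgTGACGtttacactcat
FOSL2, chr2:28392782-28392807, plus strand: agtctggggtTGACGtgagtgaatcc
JUN, chr1:58784098-58784123, minus strand: gccttggggTGACATCAtgggctatt
JUNB, chr19:12791339-12791364, plus strand: ttcctgacagTGACGcgagccgcctc
ATF3, chr1:212565275-212565300, plus strand: cctatgataTGACATCAtatggccac
MAFF, chr22:38201931-38201956, plus strand: ccgggtcggTGACGTCAccgcatgac

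TGACG, searched on both strands, was present in 7 of the 10 windows, against 21.2% of 35116 RefSeq windows of the same length. Those windows belonged to 7 of the 8 genes. Its longer form TGACGTCA was present in JUND and MAFF and in 1.65% of all windows, and TGACATCA in JUN and ATF3 and in 2.37%. The classical TGACTCA was in none of the 10 windows and in 4.2% of all. These matches describe the sequence alone, and no binding was measured. The motif forms were not listed in the plan, so the shares are given as a description only.

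Levels are given as FPKM, that is, fragments counted per kilobase of transcript and corrected for library size. Genes can therefore be compared with each other. PRDM16 itself was at 1226 and 1146 FPKM in the PRDM16 libraries, against 0.0157 and 0.234 FPKM in the control vector libraries, so the labels and the target gene went together. From the list of markers for a renal carcinoma line, PAX8, PAX2, EPAS1, CA12, CDH2, VIM and KRT8 were all above 1 FPKM. Markers of leukocytes, endothelium and muscle summed to between 0.127 and 0.280 FPKM per library in each list, with CD3E and MYH7 listed at 0 throughout. Fibroblast markers summed to between 3.27 and 4.36 FPKM, with DCN at 0. Of these, LUM and COL1A1 had means of 2.17 and 1.78 FPKM over the 4 libraries. Neuronal markers summed to between 3.65 and 4.66 FPKM, with SNAP25 and RBFOX3 at means of 2.60 and 1.30 FPKM. The low values put the depth of PRDM16 replicates 1 and 2 at 1.26 and 1.17 times, and of control vector replicate 2 at 1.39 times, that of control vector replicate 1, while absolute depth is unknown.

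Control vector replicate 2 stood apart from the other libraries. The median absolute log2 difference over 13246 tested loci was 0.098 between the PRDM16 libraries and 0.190 between the control vector libraries. Control vector replicate 1 differed by 0.102 and 0.119 from the PRDM16 libraries, about as much as these differed from each other, and control vector replicate 2 by 0.186 and 0.230. Values without that library are therefore given beside each tested subunit.

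FOSL1 was the leading AP-1 message in all 4 libraries and the one with the smallest p of the family. It encodes FRA-1, a FOS protein without the strong activation domain of FOS, and lies on chromosome 11 at 65892049 to 65900573 (locus XLOC_009702), minus strand. FOSL1 was at 372 and 350.0 FPKM in PRDM16 libraries, against 283 and 224 FPKM in control vector libraries. The groups did not overlap, and the gap of 67.4 FPKM between them exceeded the range within either group, 21.7 FPKM in PRDM16 and 58.2 FPKM in the control vector. The means were 361 ± 15.3 and 254 ± 41.2 FPKM (SD, n = 2 each), 1.42-fold higher with PRDM16. In bulk RNA, more cells with the message and more message per cell cannot be told apart.

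The change of FOSL1 did not pass the test across all loci. It was 0.52 on the log2(FPKM + 1) scale, with SE 0.14, a 95% interval of 0.16 to 0.88, an unadjusted limma p of 0.0147 and a limma adjusted p of 0.689. By p the gene ranked 222nd of 13246 loci. Leaving out control vector replicate 2 gave a log2 change of 0.35, and leaving out replicate 1 of that group gave 0.68.

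The other FOS relative at a high level, FOSL2, went the opposite way. It encodes FRA-2 and lies on chromosome 2 at 28392448 to 28417312 (locus XLOC_027987), plus strand. FOSL2 was at 61.4 and 56.5 FPKM in PRDM16 libraries, against 77.1 and 65.4 FPKM in control vector libraries. Both PRDM16 libraries lay below both control vector libraries, by a gap of 3.91 FPKM that was smaller than the range within either group. The means were 58.95 ± 3.53 and 71.2 ± 8.27 FPKM (SD, n = 2 each), a log2 change of -0.26 (SE 0.12, 95% interval -0.58 to 0.05) that did not pass (limma adjusted p = 0.689). Leaving out control vector replicate 2 gave -0.38, and leaving out replicate 1 of that group gave -0.15.

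As a description, the FRA genes were also set against each other within libraries. The FOSL1 to FOSL2 ratio of FPKM was 6.05 and 6.20 in PRDM16 libraries, against 3.67 and 3.43 in control vector libraries. Its means of 6.12 ± 0.107 and 3.55 ± 0.165 (SD, n = 2 each) differed by more than that spread. This ratio was chosen after the genes were seen to go opposite ways, so it restates that and adds no support. An exact permutation test (two-sided) of 2 against 2 libraries has a smallest p of 0.333, and that was its value.

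FOS and FOSB, the immediate early members that are silent in most resting cells, were at low levels. FOS, on chromosome 14 at 75278774 to 75282230 (locus XLOC_015333), was at 0.535 and 0.468 FPKM in PRDM16 libraries, against 0.366 and 0.246 FPKM in control vector libraries. FOSB, on chromosome 19 at 45467995 to 45475179 (locus XLOC_026056), was at 1.18 and 1.33 FPKM in PRDM16 libraries, against 0.816 and 0.687 FPKM in control vector libraries. Neither gene overlapped between groups, and both were higher with PRDM16, 1.64-fold for FOS and 1.67-fold for FOSB on the means.

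FOS was below the filter of a mean of 1 FPKM and was not tested. FOSB passed it at a mean of 1.003 FPKM, carried by the PRDM16 libraries, and its log2 change of 0.36 (SE 0.16, 95% interval -0.07 to 0.80) did not pass (limma adjusted p = 0.689). Leaving out control vector replicate 2 gave 0.31. FOSB lies wholly within ERCC1, a DNA repair gene on the other strand at 43.9 and 40.2 FPKM in PRDM16 libraries and 37.2 and 44.1 FPKM in control vector libraries. The genes share no exon base in GENCODE release 29. Whether the counting used strand is not given in the sources used here, so unspliced ERCC1 reads and FOSB reads cannot be told apart.

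**Figure D1:**
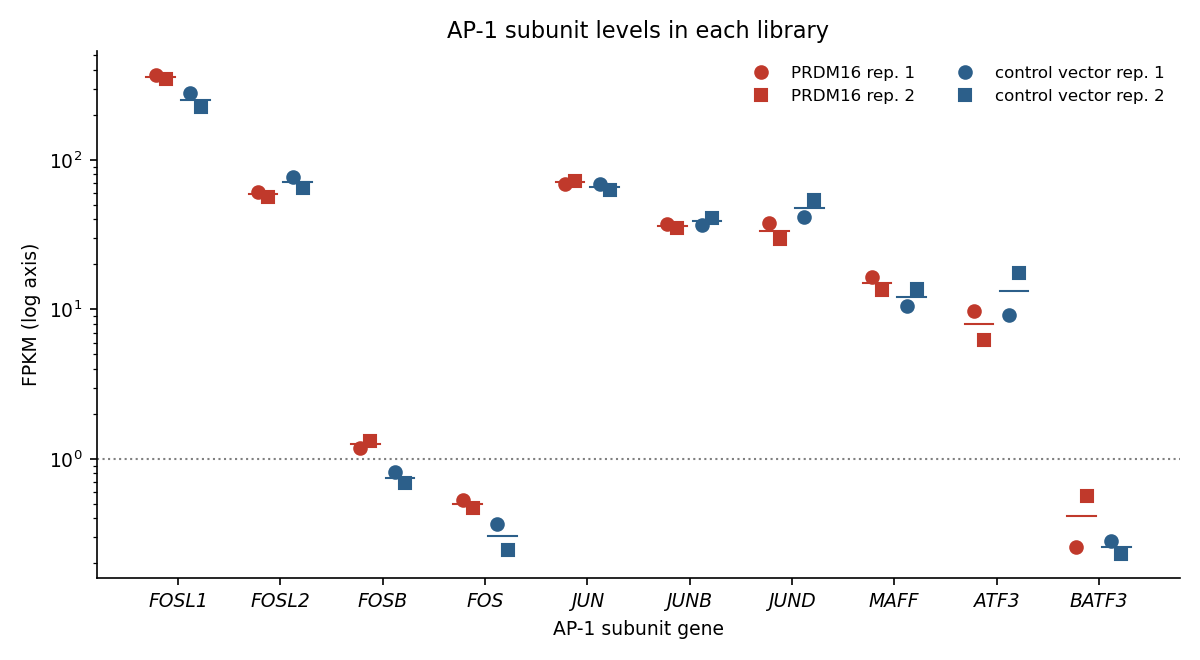
FPKM of each AP-1 subunit gene (log axis) in the PRDM16 libraries (red) and the control vector libraries (blue), with replicates as circles and squares, group means as short lines and the dotted line at the 1 FPKM filter. FOSL1 stands above all other subunits at 224 to 372 FPKM, while FOS and BATF3 lie below the filter.

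The JUN genes supply the usual partners of FOS proteins, and JUN and JUNB overlapped between groups while JUND did not. JUN, the strongest activator among them, is a gene of 1 exon on chromosome 1 at 58780788 to 58784327 (locus XLOC_003403), minus strand. It was at 69.1 and 72.4 FPKM in PRDM16 libraries, against 69.5 and 63.2 FPKM in control vector libraries. The groups overlapped, and the log2 change was 0.09 (SE 0.10, 95% interval -0.16 to 0.35, limma adjusted p = 0.742). The value became 0.02 once control vector replicate 2 was left out.

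JUNB, a weaker activator that can oppose JUN, lies on chromosome 19 at 12791496 to 12793315 (locus XLOC_025457). It was at 37.2 and 35.0 FPKM in PRDM16 libraries, against 36.5 and 41.2 FPKM in control vector libraries, again with overlap. Its log2 change was -0.10 (SE 0.11, 95% interval -0.38 to 0.18, limma adjusted p = 0.741) and -0.02 without control vector replicate 2. All 1820 bases of JUNB lie within HOOK2 on the other strand, 259 of them in HOOK2 exons, so reads of these genes cannot be told apart without strand and the level of JUNB is uncertain.

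JUND, the JUN gene that is usually expressed steadily whatever the growth state, was the lowest-p subunit after FOSL1. It lies on chromosome 19 at 18279760 to 18281622 (locus XLOC_026931), minus strand. JUND was at 37.8 and 29.4 FPKM in PRDM16 libraries, against 41.7 and 53.9 FPKM in control vector libraries. Both PRDM16 libraries lay below both control vector libraries, but the gap of 3.89 FPKM was smaller than the range of 8.45 FPKM within PRDM16 and 12.2 FPKM within the control vector. The means were 33.6 ± 5.98 and 47.8 ± 8.63 FPKM (SD, n = 2 each), 1.42-fold lower with PRDM16. Its log2 change of -0.50 (SE 0.19, 95% interval -0.99 to -0.00261) had an unadjusted limma p of 0.0492 and did not pass (limma adjusted p = 0.689). Leaving out control vector replicate 2 gave -0.31, and leaving out PRDM16 replicate 2 gave -0.32.

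ATF3, a stress-induced member that often represses its targets, varied more within the control vector group than between the groups. The gene lies on chromosome 1 at 212565334 to 212620777 (locus XLOC_002231). ATF3 was at 9.73 and 6.23 FPKM in PRDM16 libraries, against 9.23 and 17.5 FPKM in control vector libraries. Only control vector replicate 2 was high, and the other control library lay inside the PRDM16 range. The log2 change was -0.65 (SE 0.35, 95% interval -1.57 to 0.28, limma adjusted p = 0.689). Leaving out control vector replicate 2 gave -0.22, and leaving out replicate 1 of that group gave -1.07.

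Genes of the integrated stress response, the pathway in which ATF4 induces ATF3, were high in the same library. This list was added after the values of ATF3 were seen. DDIT3, ASNS and ATF4 are named outside the naming rule given under processing, which none of these genes meets. ATF4 itself was at 201 and 166 FPKM in PRDM16 libraries, against 172 and 256 FPKM in control vector libraries. DDIT3, which encodes the stress factor CHOP, was at 77.3 and 38.0 FPKM in PRDM16 libraries, against 43.8 and 153 FPKM in control vector libraries. ASNS, the asparagine synthetase gene, was at 47.8 and 30.9 FPKM in PRDM16 libraries, against 28.0 and 83.9 FPKM in control vector libraries. All 7 listed genes were tested, none passed, and all overlapped between groups, with a median log2 change of -0.44. Their part in the ATF3 values was not tested.

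MAFF is a small MAF protein that lacks an activation domain and pairs with other leucine zipper proteins. It lies on chromosome 22 at 38200767 to 38216511 (locus XLOC_034372). MAFF was at 16.4 and 13.5 FPKM in PRDM16 libraries, against 10.5 and 13.7 FPKM in control vector libraries. The groups overlapped, and the log2 change of 0.29 (SE 0.17, 95% interval -0.16 to 0.75) did not pass (limma adjusted p = 0.689). Leaving out control vector replicate 2 gave 0.47, leaving out replicate 1 of that group 0.11 and leaving out PRDM16 replicate 1 0.16. The gene overlaps PLA2G6 on the other strand over 4924 bases, with no exon base in common, so its level carries the same doubt over strand.

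BATF3, known for its role in dendritic cells, was the scarcest subunit on average. It lies on chromosome 1 at 212686418 to 212699985 (locus XLOC_004747). BATF3 was at 0.258 and 0.569 FPKM in PRDM16 libraries, against 0.282 and 0.232 FPKM in control vector libraries, and was not tested. The groups overlapped, with PRDM16 replicate 2 the high library.

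Across the family, then, 8 of the 10 subunits were tested and none had a limma adjusted p below the 0.05 threshold, where 0.0226% of all tested loci were called. At an unadjusted limma p under 0.05 there were 2, FOSL1 and JUND, where 6.12% of all tested loci had such a p. The subunits were chosen with earlier results of these data known, so this count adds no support for a change of the family. The PRDM16 pair was wholly above the control vector pair for FOSL1 and FOSB and below them for FOSL2 and JUND, 4 of 8, where 41.4% of all tested loci did one or the other. That share is near the background, and FOSB counts in it although it passed the filter only through its PRDM16 libraries, which partly builds in its direction. The median log2 change of the tested subunits was -0.005, beside 0.004 over all loci.

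**Figure D2:**
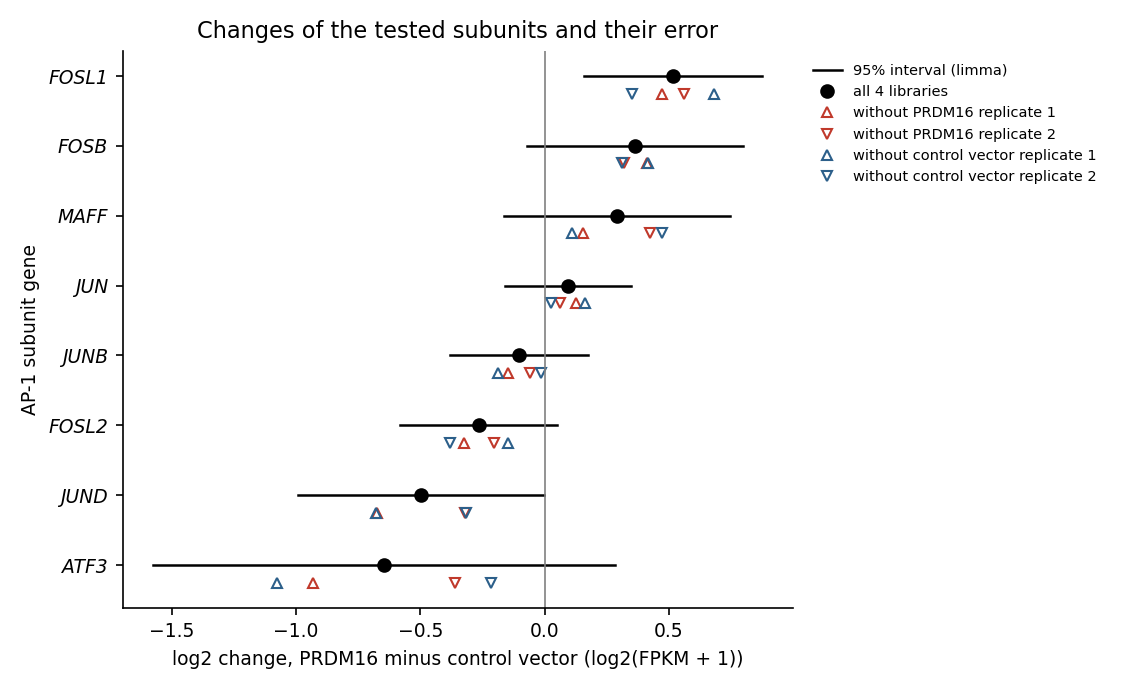
Log2 change (PRDM16 minus control vector, on log2(FPKM + 1)) of the 8 tested subunits, with the limma 95% interval as a line and triangles for the value after each library is left out. ATF3 moves most, from -1.07 to -0.22, and no subunit crosses 0 when a library is left out. For FOSL1, FOSB, FOSL2 and JUND, whose groups do not overlap, no such crossing was possible.

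**Figure D3:**
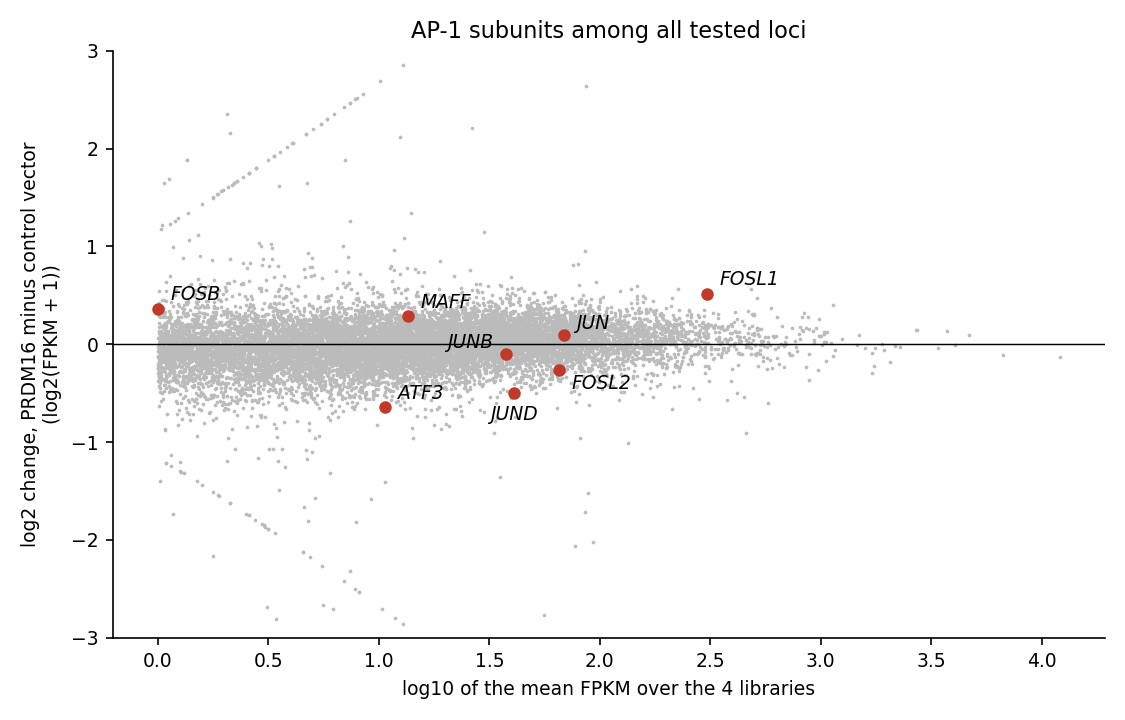
Log2 change (PRDM16 minus control vector) of each tested locus (grey) against the log10 of its mean FPKM, with the tested AP-1 subunits in red; 30 loci beyond a log2 change of 3 in size are not drawn. FOSL1 lies at a log2 change of 0.52, and JUN and JUNB lie at 0.09 and -0.10.

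The makeup of the AP-1 message pool was also compared, as a description. FOSL1 made up 61.4% and 61.9% of the summed FPKM of the 10 subunits in PRDM16 libraries, against 53.5% and 46.7% in control vector libraries. FOSL2 held 10.1% and 9.99% in PRDM16 libraries, against 14.6% and 13.6% in control vector libraries. JUND held 6.25% and 5.20% in PRDM16 libraries, against 7.89% and 11.2% in control vector libraries. None of these shares overlapped between groups, but shares of a sum are tied to each other, so a high FOSL1 lowers the rest.

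Summed over families, the FOS genes reached 435 and 408 FPKM in PRDM16 libraries, against 361 and 291 FPKM in control vector libraries. Most of that was FOSL1, at 372 and 350 FPKM in PRDM16 libraries and 283 and 224 FPKM in control vector libraries. The FOS sum and its ratio to the JUN sum therefore largely restate FOSL1. The JUN genes summed to 144 and 137 FPKM in PRDM16 libraries, against 148 and 158 FPKM in control vector libraries. The ratio of FOS family to JUN family messages was 3.02 and 2.99 in PRDM16 libraries, against 2.44 and 1.84 in control vector libraries. Each of these comparisons gave an exact permutation p of 0.333, the smallest this design allows and the value of any 2 against 2 libraries that do not overlap. ATF3, MAFF and BATF3 together summed to 26.42 and 20.27 FPKM in PRDM16 libraries, against 19.98 and 31.49 FPKM in control vector libraries, which overlapped (exact permutation p = 1.0). The share of FOSL1 was higher by 11.6 percentage points with PRDM16 on the means, and by 8.19 without control vector replicate 2.

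**Figure D4:**
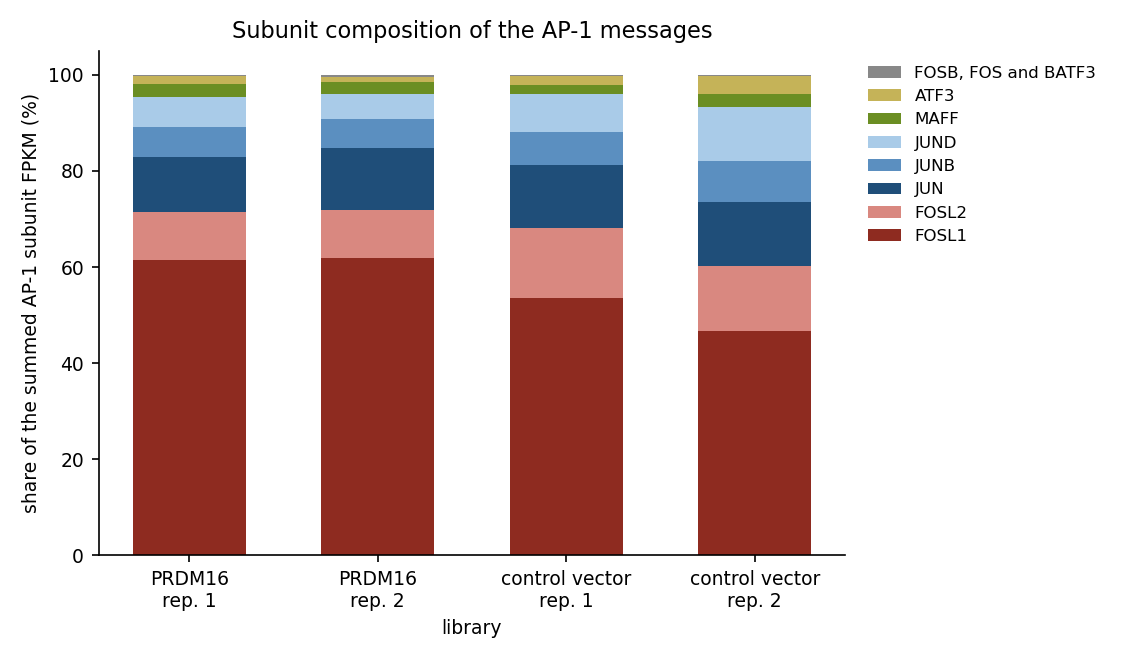
Share of the summed AP-1 subunit FPKM (%) held by each subunit in each library, PRDM16 libraries left and control vector libraries right. FOSL1 takes 61.4% and 61.9% in the PRDM16 libraries and 53.5% and 46.7% in the control vector libraries.

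The order of the subunits by level was stable at the top and bottom. FOSL1 ranked first and FOSB 8th in every library, and FOS and BATF3 held the last places. JUN ranked above FOSL2 in both PRDM16 libraries, with no overlap between the genes, whereas FOSL2 ranked above JUN in both control vector libraries, where their ranges overlapped. JUNB and JUND overlapped in the PRDM16 group and did not in the control vector group, where JUND was higher. MAFF was above ATF3 in both PRDM16 libraries without overlap, and those genes overlapped in the control vector group. FOS and BATF3 overlapped in both groups.

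Relatives that can join or compete with these subunits were few among tested loci. Of 16 listed bZIP relatives and partners, 10 had a locus of their own and 5 were tested, with none called and a median log2 change of -0.37. The PRDM16 pair was wholly lower for 2 and wholly higher for 1, where 20.3% and 21.1% of all tested loci were. MAF, a large MAF factor, was at 12.04 and 12.55 FPKM in PRDM16 libraries, against 15.3 and 20.9 FPKM in control vector libraries. CREB5, which pairs with JUN, was at 12.7 and 8.92 FPKM in PRDM16 libraries, against 14.3 and 13.8 FPKM in control vector libraries. Both lay lower without overlap, at log2 changes of -0.50 and -0.37 (limma adjusted p = 0.689 for each). NFE2L3, a partner of small MAF proteins, was the 1 that lay higher, at 34.0 and 34.2 FPKM in PRDM16 libraries, against 31.8 and 30.6 FPKM in control vector libraries.

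Upstream, the MAP kinases and SRF partners that switch AP-1 genes on gave a mixed picture. Of 24 listed genes 22 were tested, with none called and a median log2 change of 0.05. The PRDM16 pair was wholly higher for 8 and wholly lower for 4, where 21.1% and 20.3% of all tested loci were. MAP2K3, a kinase that activates p38, was at 44.6 and 41.7 FPKM in PRDM16 libraries, against 32.6 and 24.3 FPKM in control vector libraries. MAPK3, which encodes ERK1, was at 24.4 and 26.8 FPKM in PRDM16 libraries, against 29.8 and 33.1 FPKM in control vector libraries. MAPK10, a JNK gene best known from neurons, was at 3.74 and 3.75 FPKM in PRDM16 libraries, against 4.88 and 6.79 FPKM in control vector libraries. ELK3, an ETS partner of SRF, was at 26.8 and 28.6 FPKM in PRDM16 libraries, against 24.1 and 18.9 FPKM in control vector libraries. None of these passed (limma adjusted p = 0.689 for each).

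Textbook AP-1 target genes were tested for 30 of 35 listed members, and none was called. In 10 of the 30 the PRDM16 pair was wholly above the control vector pair and in 4 wholly below, where 21.1% and 20.3% of all tested loci did so, and the median log2 change was 0.11. IL11, a cytokine gene, was at 27.3 and 27.5 FPKM in PRDM16 libraries, against 17.7 and 15.3 FPKM in control vector libraries. HBEGF, a ligand of the EGF receptor, was at 15.9 and 15.5 FPKM in PRDM16 libraries, against 10.2 and 8.19 FPKM in control vector libraries. Their log2 changes were 0.70 (SE 0.11) and 0.72 (SE 0.13), with limma adjusted p of 0.616 and 0.689.

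The chromatin protein gene HMGA1 had the largest log2 change among the 30 tested targets, at 105 and 99.5 FPKM in PRDM16 libraries, against 50.03 and 65.7 FPKM in control vector libraries. PLAUR, the urokinase receptor gene, was at 79.7 and 77.4 FPKM in PRDM16 libraries, against 59.7 and 59.4 FPKM in control vector libraries. Neither passed, at log2 changes of 0.82 (SE 0.15) and 0.39 (SE 0.08) and a limma adjusted p of 0.689 each. The collagenase genes MMP1 and MMP13, the best known AP-1 targets, went the other way. MMP1 was at 7.18 and 8.07 FPKM in PRDM16 libraries, against 8.39 and 9.49 FPKM in control vector libraries. MMP13 was at 2.34 and 2.30 FPKM in PRDM16 libraries, against 3.56 and 2.85 FPKM in control vector libraries. These collagenase genes were chosen after their values were seen.

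**Figure D5:**
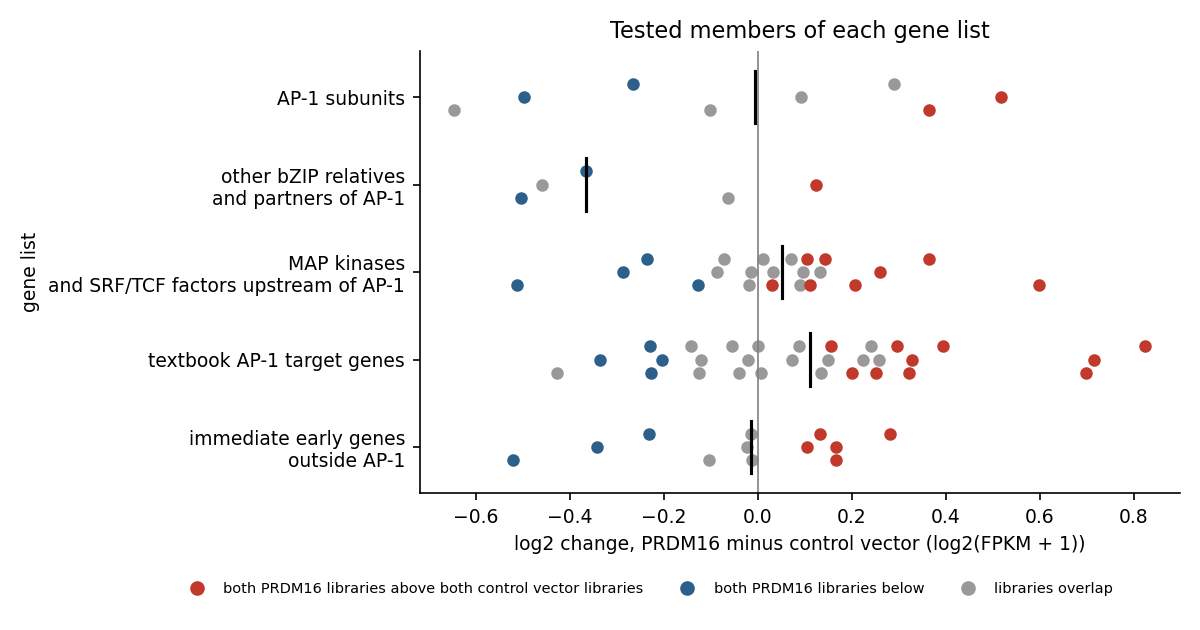
Log2 change (PRDM16 minus control vector) of the tested members of the gene lists, with a black line at the list median and colour for whether the libraries of the groups overlap. The integrated stress response genes, a list added later, are not drawn. The target list has its median at 0.11, and the immediate early genes outside AP-1 have theirs at -0.01.

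Immediate early genes outside AP-1, which answer the same kinases, were tested for 12 of 15 listed genes, with none called and a median log2 change of -0.01. The PRDM16 pair was wholly higher for 5 and wholly lower for 3, where 21.1% and 20.3% of all tested loci were. MYC was at 88.0 and 77.7 FPKM in PRDM16 libraries, against 68.4 and 67.5 FPKM in control vector libraries. EGR1, the SRF-driven zinc finger gene, was at 1.10 and 1.43 FPKM in PRDM16 libraries, against 1.69 and 2.90 FPKM in control vector libraries, opposite in direction to FOS and FOSB. IER2 was at 27.0 and 26.5 FPKM in PRDM16 libraries, against 22.7 and 24.7 FPKM in control vector libraries. BTG2 was at 1.10 and 1.36 FPKM in PRDM16 libraries, against 1.99 and 1.67 FPKM in control vector libraries.

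Genes whose pattern over the 4 libraries was most like that of FOSL1, JUN and ATF3 were looked for among 7074 protein-coding loci outside the lists with a mean of at least 5 FPKM. Likeness was the Euclidean distance between log2(FPKM + 1) values centred on each gene's mean. The loci nearest to FOSL1 were MAGEA3, ABHD17C and TMEM158, at distances of 0.0926, 0.0999 and 0.1023, where FOSL1 lies 0.570 from a flat pattern. TMEM158 was at 21.95 and 22.8 FPKM in PRDM16 libraries, against 17.2 and 13.9 FPKM in control vector libraries, and MAGEA3 has near-identical copies that may share its reads. Nearest to ATF3 were STC2, DDIT4 and DYSF, at 0.1235, 0.1498 and 0.1785, with STC2 at 264 and 181 FPKM in PRDM16 libraries, against 229 and 451 FPKM in control vector libraries. JUN was too flat to have a pattern of its own, with 2828 loci within a distance of 0.2, led by PANK2, PHF14 and YIPF5. Within that distance there were 52 loci for FOSL1 and 4 for ATF3.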

How the data were processed

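Total RNA from PRDM16 and control vector 786-O cells was sequenced, 2 libraries each. The submitters' processing notes name the tools TopHat2 2.1.0, Cufflinks 2.2.1, Trim Galore and Cuffdiff with the build hg38. The sources used here do not give the annotation, filters or strand setting. The deposited values, 1 per locus and library, were taken as the authors' FPKM, a unit the header does not name, because of those tools and because library totals lay between 556213 and 574003 with fractional values. Read numbers are unknown, so no counting interval is given.

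Loci with a mean of at least 1 FPKM over the 4 libraries were tested on log2(FPKM + 1), which understates changes of low genes, with limma 3.58.1 in R 4.3.3. The fit used a variance trend and two-sided moderated tests, with p adjusted by Benjamini-Hochberg over 13246 loci at a threshold of 0.05. Lists are described by counts and medians, without a test of their own. On simulated data with 13246 loci, a true log2 change of 0.5 was called for 0.2% of genes, a change of 1 for 49.2% and a change of 2 for 80.6%. These rates are for protein-coding loci with a mean of at least 5 FPKM. On average 3.1 unchanged loci were called per simulated data set. The scatter of each locus was set to the SD seen in these libraries, itself poorly known from 2 per group. It was drawn independently by locus and was equal in both groups, so it lacked the library-wide deviation of control vector replicate 2. Real rates may therefore differ.

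The 10 subunits and all lists were chosen with earlier results of these data known. All subunits and PRDM16 were named whatever their values. From each other list up to 4 members with the smallest p among those without overlap between groups were named, and for FOSL1, JUN and ATF3 the 3 nearest patterns. Genes named outside this rule are said to be so. Members found only in loci naming several genes were left out. Gene positions are from GENCODE release 29 on GRCh38, the assembly of hg38, and promoter windows from RefSeq on GRCh38.p14. Alternatives covered pseudocounts, filters, scaling, variance models, a replicate block and leaving out each library. Python 3.11.15 with pandas 2.3.3, numpy 2.4.6 and matplotlib 3.10.9 made the tables and plots.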

Additional observations from a re-analysis of the deposited data

How the results depend on the processing

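No subunit was called in any of the settings run, and in all 111 alternative values of the 8 tested subunits the direction was the same as reported. Part of that agreement was fixed in advance. Filters, variance models and the replicate block leave the log2 change of a subunit as it is. Leaving out 1 library cannot reverse FOSL1, FOSB, FOSL2 or JUND, whose groups do not overlap. The ranges over the settings were 0.35 to 0.68 for FOSL1, 0.31 to 0.67 for FOSB, -0.38 to -0.15 for FOSL2, -0.68 to -0.31 for JUND, -1.07 to -0.22 for ATF3, 0.11 to 0.47 for MAFF, 0.02 to 0.16 for JUN and -0.19 to -0.02 for JUNB. The median log2 change of the subunits was -0.005, and it was 0.127 without a filter on low values, where FOS and BATF3 enter, and -0.102 with a mean of at least 5 FPKM, where FOSB drops out. No scaling moved the median of all loci by over 0.1. Among all loci the reported setting called 3, against 1 with no filter, 6 with no variance trend, 5 with robust variances or with a pseudocount of 0.1, and 16 to 39 when 1 library was left out. Those last fits leave 1 group with a lone library, assumed to vary like the other group, whose spread alone is the error. The cause was not tested.

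The replicate numbers are not said to mark a shared culture or day, and the deviations of same-numbered libraries had a correlation of -0.058 over 13246 loci. With the replicate block 5 loci and 0 subunits were called, the smallest adjusted p of a subunit being 0.917. No deposited locus names a subunit together with other genes, so the planned shares with such loci were not run, and the count-based tools planned in case of counts were not run either.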
